A study of Mus musculus with 12 samples.

Results

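The transcripts of 10 genes of autophagy were followed in mouse embryonic stem cells (mESCs) after OHT or vehicle: *Ulk1*, *Becn1*, *Uvrag*, *Wipi1*, *Atg9a*, *Atg16l1*, *Map1lc3b*, *Gabarapl1*, *Gabarapl2* and *Sqstm1*. They were chosen by symbol, and all 10 were found among the 54146 genes of the deposited tables. All 10 had a mean normalised count above 100, the minimum for a call. No direction was shared by the whole set. At Day 2, 3 genes were higher and 2 lower in the libraries labelled OHT, where 9.17% and 10.6% of all genes tested were. At Day 4, 3 were higher and 4 lower, where 23.5% and 21.7% of all genes tested were. The called differences were small and ran from *Gabarapl2*, which fell by 20.3% at Day 4, to *Wipi1*, which was 43.8% higher at Day 4. In RNA from many cells, a change in every cell and a change in a share of the cells cannot be told apart.

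RNA-seq was performed on *Prdm10*F/F; Rosa26-CreERT2 mESCs of the C57BL/6 strain, in which both alleles of *Prdm10*, a zinc finger transcription factor, are floxed and the Cre recombinase is driven from the ubiquitously active Rosa26 locus. Every group carries these alleles. The cells were grown with serum and LIF and were exposed for 24 h to 50 nM 4-OHT (OHT), which switches the recombinase on, or to the same volume of ethanol (EtOH), and they were harvested at Day 2 or Day 4. This gave 4 groups of 3 libraries, Day2_EtOH, Day2_OHT, Day4_EtOH and Day4_OHT. An effect of OHT itself, or of the recombinase once active, cannot be told apart from that of the deletion, since no group without floxed alleles was used. The labels do not say whether the 3 libraries of a group came from separate cultures, so that p-values measure the spread between these libraries, which may be technical.

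The 12 libraries held between 35017667 and 41409992 expected counts, the read pairs that RSEM assigns to genes. The least abundant of the 10 genes had 150 normalised counts in its lowest library. A normalised count is an expected count divided by the size factor of its library. The count of *Prdm10* over the whole gene was higher in the libraries labelled OHT, by log2 fold changes of 1.44 (Day 2) and 1.21 (Day 4). A gene-level count does not read the floxed sequence by itself, so that it cannot check the deletion, and groups are named by label. The study reports that recombination in such cells was checked in DNA, in the transcript of the floxed exon and in protein. All 6 stem cell markers examined (*Pou5f1*, *Sox2*, *Nanog*, *Klf4*, *Esrrb* and *Zfp42*) were above 100 normalised counts in every group. Their sum was lower in Day2_OHT (66684 to 69454) than in Day2_EtOH (70391 to 72616), and higher in Day4_OHT (79621 to 80165) than in Day4_EtOH (70879 to 73872). The sum of 12 germ layer markers was lower in OHT at Day 2 (1519 to 1602 against 1679 to 1724) and at Day 4 (1345 to 1397 against 1487 to 1524). Only 2 of these 12 had a mean high enough to be tested on each day. At Day 2, 1 was called lower (10.6% of all genes tested). At Day 4, 1 was called higher (23.5%) and 1 lower (21.7%). The sum of 8 fibroblast markers overlapped at Day 2 (205 to 240 against 198 to 226) and was lower in OHT at Day 4 (134 to 156 against 174 to 205), and of these *Fap* and *Lum* stood at 3 counts or fewer in all 12 libraries. The part of these shifts in the results of either day was not tested.

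Autophagy delivers cytoplasm and organelles to the lysosome inside a double membrane, the autophagosome. A kinase complex built on ULK1 starts the process, and a lipid kinase complex containing Beclin 1 then marks the membrane with the lipid PI3P. WIPI proteins read that mark, ATG9 vesicles and lipid transfer proteins supply membrane, and a conjugation machinery attaches small ATG8 proteins (LC3 and GABARAP families) to the membrane. Cargo receptors such as p62 hold the cargo to ATG8. The receptor is itself degraded, as is much of the LC3, so that an mRNA level says nothing of the rate of the process. Several lysosomal and autophagy genes are known targets of the TFE factors TFEB, TFE3 and MITF, which are held in check by a complex of FLCN.

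Sequence around RefSeq starts of the genes was examined because PRDM10 binds DNA by sequence and because the TFE factors bind the E-box CACGTG. The letters used for PRDM10 were those that differ between the wild-type and mutant probes of the gel shift assay of the study. They are shown in capitals here, and spell TGGTNNNGCCC in the wild-type probe.
WT probe: ctggcacagTGGTcgcGCCCggcccgcc
MUT probe: ctggcacagCAACcgcATTTggcccgcc
RefSeq promoter windows on GRCm38.p6 (250 bases before to 50 after a start, both strands searched) were matched for 8 of the 10 genes, all but *Becn1* and *Atg16l1*. None of the 8 windows held all 8 letters, which 476 of all 32851 windows did (1.45%). Windows with at least 7 of the 8 letters numbered 3 of 8 here, and 24.6% of all windows did as well. The 3 stretches are shown because they are the closest matches among the 10 genes, with the matching letters in capitals.
Wipi1: gcgagcccgGGGCgggACCgacgcggcaa
Ulk1: tgcccagtcTGcTccgGCCCcgcccatat
Uvrag: ttacgccccaGGTttaGCCCgggtttgac
They lie at chr11:109611396-109611424, chr5:110810292-110810320 and chr7:99141291-99141319, each on the minus strand, and the stretch of *Wipi1* holds the letters in reverse complement. The stretch of *Wipi1* lies inside the gene as GENCODE gives it, with a start at 109611967, and not ahead of that start. A match is a description of letters and not a binding site.

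*Gabarapl1* was the single gene of the 10 on the list of PRDM10-bound genes from the ChIP-seq of the study. The stretch ahead of its annotated start, at chr6:129532942-129533159 on the plus strand, is shown for that reason. The list also takes in peaks farther upstream, within a gene or downstream of it, so that it places no peak in this stretch. The closest match in the promoter window, with 6 of the 8 letters, lies past that start, and 89.3% of all windows held at least 6. Capitals mark each 4-letter part of the pattern on either strand, here TGGT and the reverse complement of GCCC, which do not stand at the spacing of the probe.
Gabarapl1: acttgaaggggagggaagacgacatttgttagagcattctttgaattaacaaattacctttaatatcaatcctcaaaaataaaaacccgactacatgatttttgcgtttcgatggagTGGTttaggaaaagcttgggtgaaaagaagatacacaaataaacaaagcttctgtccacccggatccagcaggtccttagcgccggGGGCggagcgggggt
The E-box was in none of the 8 windows, against 7.15% of all windows. No match says only that these letters are not in the window.

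Levels of the genes were compared with each other in TPM, which is scaled by transcript length and within each library. In Day2_EtOH the order was *Sqstm1* (108 ± 0.358 TPM, SD, n = 3), which encodes the cargo receptor p62, then *Gabarapl2* (84.5 ± 0.957) and *Map1lc3b* (51.7 ± 0.983), both of which encode ATG8 proteins. *Becn1* (43.7 ± 0.436), *Atg16l1* (26.6 ± 0.745), *Gabarapl1* (20.7 ± 0.156) and *Ulk1* (13.2 ± 1.00) followed. The lowest were *Uvrag* (4.86 ± 0.111), *Atg9a* (4.53 ± 0.466) and *Wipi1* (2.89 ± 0.0635). The ranges of neighbours in this order did not overlap, except those of *Uvrag* and *Atg9a*. The cargo receptor gene and a pair of the ATG8 genes thus had the highest levels, and *Wipi1* had the lowest in all 4 groups.

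The order was nearly kept in the other groups. At Day 4 *Gabarapl2* stood first, at 172 ± 14.5 TPM (SD, n = 3) in EtOH and 132 ± 1.20 in OHT, ahead of *Sqstm1* (88.5 ± 2.97 and 99.8 ± 1.09). *Ulk1* and *Gabarapl1* overlapped in Day2_OHT (19.0 and 19.0 TPM) and in Day4_OHT (13.2 and 12.6 TPM). *Map1lc3b* and *Becn1* overlapped in Day4_EtOH (56.2 and 54.1 TPM). The 10 genes together took 361 ± 1.54 TPM in Day2_EtOH, 414 ± 9.89 in Day2_OHT, 446 ± 18.9 in Day4_EtOH and 412 ± 3.40 in Day4_OHT (SD, n = 3). A TPM depends on all transcripts of its library, and these sums were not tested between groups.

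**Figure D1:**
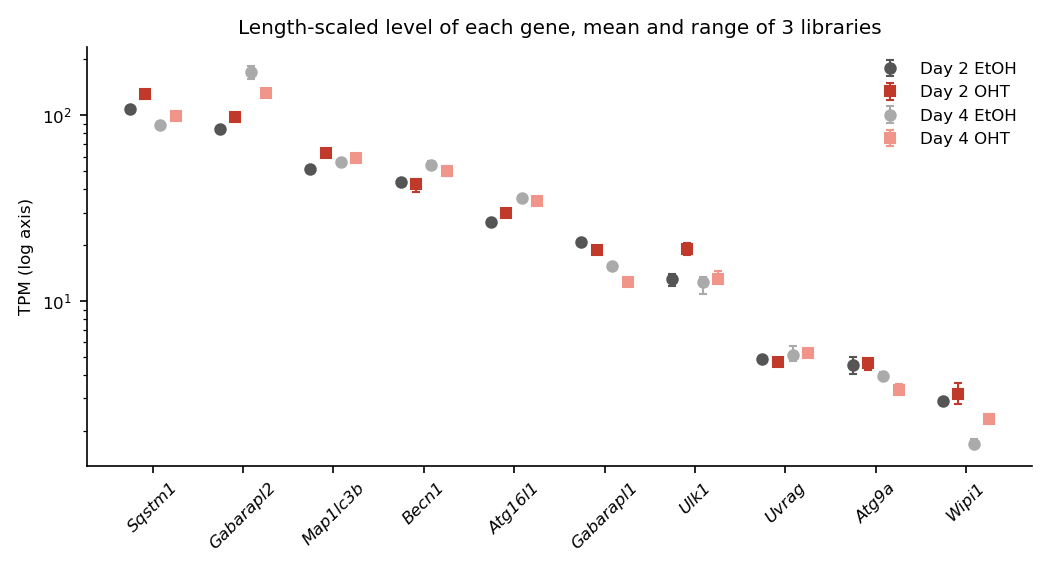
TPM of the 10 genes on a log axis in the 4 groups. Points are means and bars the range of 3 libraries, with genes in the order of Day2_EtOH; *Sqstm1* leads at Day 2 (108 TPM in EtOH) and *Gabarapl2* at Day 4 (172 TPM in EtOH).

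The libraries labelled OHT were next compared with those labelled EtOH on each day, over all genes with a mean above 100. A gene was called at a DESeq2 Benjamini-Hochberg adjusted p below 0.05. At Day 2, 3 of the 10 genes were higher (9.17% of all 11644 genes tested were) and 2 were lower (10.6%). With total counts as the scaling, calls over all genes at Day 2 were 1389 higher and 638 lower, against 1068 and 1238. At Day 4, 3 were higher (23.5% of 11555) and 4 were lower (21.7%). The groups did not overlap in the higher direction for 5 genes at Day 2 (18.7% of all genes tested) and 4 at Day 4 (33.5%), and in the lower direction for 2 (26.9%) and 4 (29.5%). The Day 4 count of higher genes therefore lay near the background. That of lower genes (40.0%) lay above it, was 2 with the replicate number as a block, and was not tested against it. Medians of the log2 fold changes over the 10 genes were 0.034 at Day 2 and -0.00080 at Day 4, beside -0.028 and 0.0063 over all genes tested. *Sqstm1* and *Map1lc3b* were higher on both days, *Gabarapl1* and *Becn1* lower on both days. *Ulk1* was called at Day 2 alone, *Gabarapl2*, *Wipi1* and *Atg9a* at Day 4 alone, and *Uvrag* and *Atg16l1* on neither day.

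**Figure D2:**
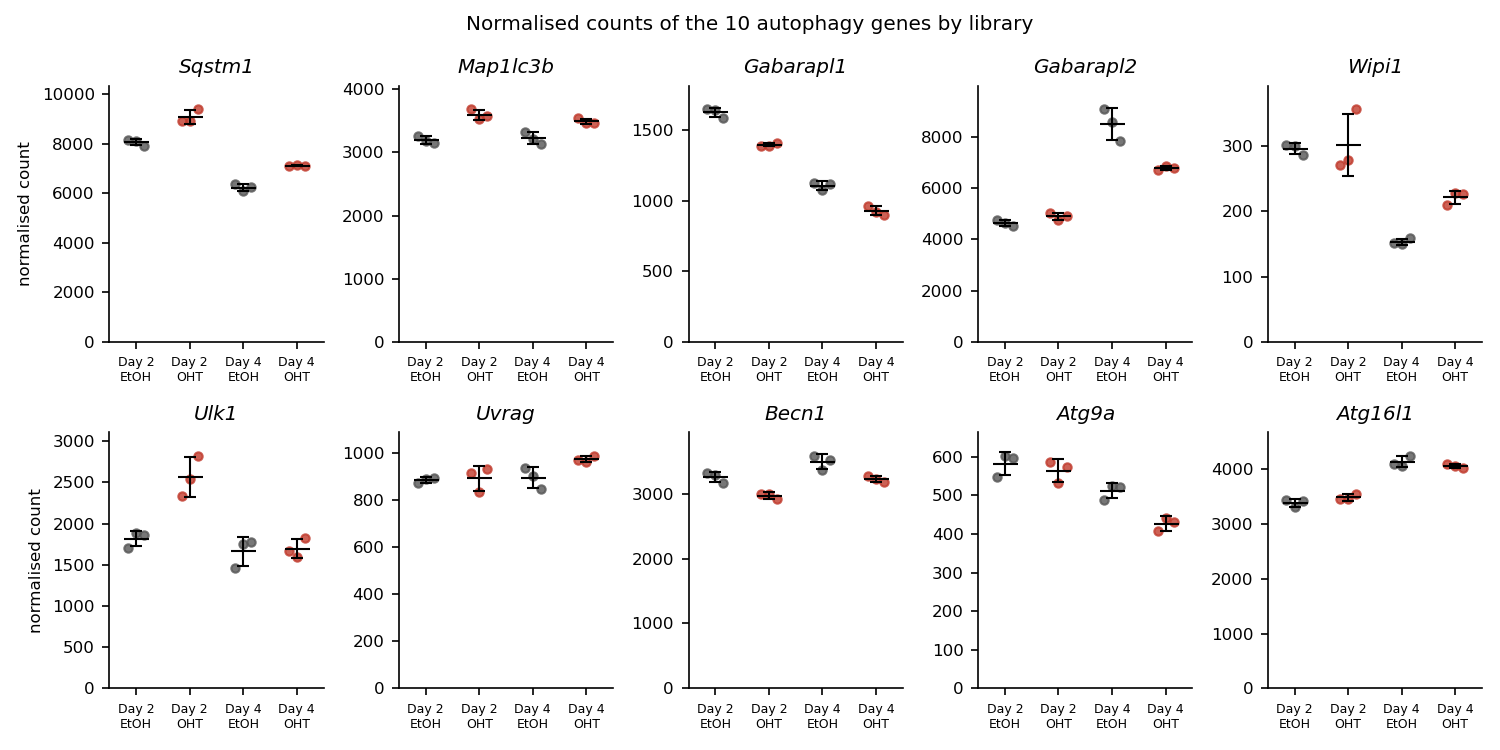
Normalised counts of each of the 10 genes in the 12 libraries, with EtOH in grey and OHT in red. Each point is a library and the bars show mean and SD of 3; every axis starts at 0, and the groups of *Sqstm1*, *Map1lc3b*, *Gabarapl1* and *Becn1* are apart on both days.

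*Ulk1* (chr5:110784488-110810097, minus strand, GRCm38) encodes the kinase that starts autophagosome formation. Its normalised counts in Day2_EtOH were 1707, 1881 and 1862, and in Day2_OHT they were 2338, 2540 and 2822. All 3 OHT libraries lay above all EtOH libraries. The log2 fold change was 0.50 (SE 0.07, adjusted p = 6.1e-11), or 41.3% higher. At Day 4 the counts were 1455, 1757 and 1771 in EtOH and 1665, 1597 and 1826 in OHT. These groups overlapped, with a log2 fold change of 0.03 (SE 0.07, adjusted p = 0.825). The 95% interval at Day 4, from -0.11 to 0.17, lay below the Day 2 value.

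*Becn1* (chr11:101285952-101302286, minus strand) encodes Beclin 1, the scaffold of the lipid kinase complex. It had 3312, 3290 and 3168 normalised counts in Day2_EtOH and 2999, 2999 and 2916 in Day2_OHT. At Day 4 it had 3584, 3362 and 3521 in EtOH and 3271, 3218 and 3178 in OHT. The OHT libraries lay below all EtOH libraries on both days, but by little. The log2 fold changes were -0.13 (SE 0.05, adjusted p = 0.0400) and -0.12 (SE 0.04, adjusted p = 0.0214). Both calls rested on most of the libraries. The Day 2 call was lost without any library but Day2_EtOH replicate 3 (adjusted p from 0.0798 to 0.164), with TMM factors (0.0745) or total counts (0.215) as the scaling, with effective lengths as offsets (0.180) and with the trend of counts on gene length removed from each library (0.145). The effective length is the length by which RSEM scales a gene, given its mix of transcripts. The Day 4 call was lost without any library but Day4_EtOH replicate 2 (0.0575 to 0.113), and with effective lengths as offsets (log2 fold change -0.079, adjusted p = 0.333).

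*Uvrag* (chr7:98885021-99141141, minus strand) encodes a partner of Beclin 1 that acts in the later form of the complex. It had 874, 890 and 896 normalised counts in Day2_EtOH and 915, 834 and 933 in Day2_OHT, which overlapped. Its log2 fold change was 0.01 (SE 0.08, adjusted p = 0.948). At Day 4 the counts were 936, 903 and 849 in EtOH and 972, 964 and 989 in OHT, with OHT above EtOH in all libraries but no call (0.12, SE 0.07, adjusted p = 0.185). The 95% intervals, -0.14 to 0.16 and -0.016 to 0.26, held 0 and also the difference of 0.11 called for *Map1lc3b* at Day 4. The effective length of *Uvrag* was 9.91% higher in OHT at Day 2 without overlap (a mean of 4218 against 3838 bases). Of all genes tested at Day 2, 13.3% had effective lengths that did not overlap. Within Day4_EtOH alone that of *Uvrag* ran from 3348 to 4526 bases. With effective lengths as offsets the Day 2 log2 fold change of *Uvrag* was -0.12 (adjusted p = 0.360).

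*Wipi1* (chr11:109573331-109611967, minus strand) encodes a reader of PI3P and was the least abundant of the 10. In Day2_EtOH it had 301, 301 and 287 normalised counts, and in Day2_OHT 270, 279 and 356. Replicate 3 of Day2_OHT stood above all EtOH libraries and the other two below them, so that the log2 fold change of 0.03 (SE 0.13, adjusted p = 0.936) became -0.11 without that library. At Day 4 the counts were 152, 150 and 159 in EtOH and 209, 227 and 227 in OHT. The OHT libraries were all higher, by 0.52 on the log2 scale (SE 0.14, adjusted p = 0.00152), the largest Day 4 difference among the 10 genes. This call was kept without each of the 6 libraries in turn.

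*Atg9a* (chr1:75180860-75192196, minus strand) encodes the membrane protein of the vesicles that seed the autophagosome. Its Day 2 counts of 548, 603 and 597 in EtOH and 587, 532 and 575 in OHT overlapped (log2 fold change -0.04, SE 0.09, adjusted p = 0.820). At Day 4 it had 489, 524 and 522 in EtOH and 407, 443 and 432 in OHT. All OHT libraries were lower, with a log2 fold change of -0.26 (SE 0.09, adjusted p = 0.0185). The call was lost without Day4_EtOH replicate 2 or 3 or Day4_OHT replicate 1 or 3 (adjusted p from 0.0644 to 0.125), and with effective lengths as offsets (0.108).

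*Atg16l1* (chr1:87755870-87792428, plus strand) encodes the subunit that places the conjugation machinery on the membrane. It had 3435, 3306 and 3419 normalised counts in Day2_EtOH and 3447, 3457 and 3555 in Day2_OHT, a log2 fold change of 0.04 (SE 0.05, adjusted p = 0.624). The Day 4 counts were 4097, 4055 and 4245 in EtOH and 4098, 4051 and 4016 in OHT (log2 fold change -0.03, SE 0.04, adjusted p = 0.627). The OHT libraries were slightly above EtOH at Day 2 and overlapped them at Day 4, and the 95% intervals, -0.05 to 0.13 and -0.11 to 0.05, held 0.

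The ATG8 genes differed in direction. *Map1lc3b* (chr8:121590361-121598760, plus strand), which encodes LC3B, had 3263, 3173 and 3146 normalised counts in Day2_EtOH and 3682, 3524 and 3569 in Day2_OHT. The Day 4 values were 3327, 3209 and 3137 in EtOH and 3538, 3468 and 3473 in OHT. It was higher in all OHT libraries on both days. The log2 fold changes were 0.17 (SE 0.05, adjusted p = 0.00413) and 0.11 (SE 0.04, adjusted p = 0.0239). The Day 4 call was lost without any library but Day4_EtOH replicate 1 (adjusted p from 0.0629 to 0.134), and with effective lengths as offsets (0.0842).

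*Gabarapl1* (chr6:129533160-129542346, plus strand), of the GABARAP family and on the bound list, had 1650, 1641 and 1589 normalised counts in Day2_EtOH and 1392, 1391 and 1408 in Day2_OHT. Its Day 4 values were 1128, 1074 and 1122 in EtOH and 963, 924 and 899 in OHT. It was lower in all OHT libraries on both days, with log2 fold changes of -0.22 (SE 0.06, adjusted p = 0.00296) and -0.26 (SE 0.07, adjusted p = 6.4e-04). Both calls were kept without each library in turn. The Day 2 call was lost with the replicate number as a block (adjusted p = 0.0527).

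*Gabarapl2* (chr8:111940703-111953612, plus strand), which encodes GATE-16, had 4736, 4644 and 4523 normalised counts in Day2_EtOH and 5018, 4741 and 4921 in Day2_OHT. The OHT libraries were all higher at Day 2 without passing the test (log2 fold change 0.08, SE 0.04, adjusted p = 0.25). At Day 4 the counts were 9066, 8557 and 7839 in EtOH and 6707, 6845 and 6773 in OHT, so that OHT now lay below. The log2 fold change was -0.33 (SE 0.04, adjusted p = 3.5e-12). Its effective length was 3.70% shorter in OHT at Day 2 and 2.36% longer at Day 4 without overlap (13.3% and 14.9% of all genes tested had groups that did not overlap). With effective lengths as offsets the Day 2 difference became 0.13 and was called (adjusted p = 0.0248).

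*Sqstm1* (chr11:50199366-50210827, minus strand), which encodes p62, had 8156, 8090 and 7916 normalised counts in Day2_EtOH and 8901, 8919 and 9387 in Day2_OHT. At Day 4 it had 6358, 6080 and 6246 in EtOH and 7103, 7138 and 7080 in OHT. All OHT libraries were higher on both days, by 12.6% and 13.9%. The log2 fold changes were 0.17 (SE 0.04, adjusted p = 4.8e-04) and 0.19 (SE 0.03, adjusted p = 2.8e-07), and both calls were kept without each library in turn.

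**Figure D3:**
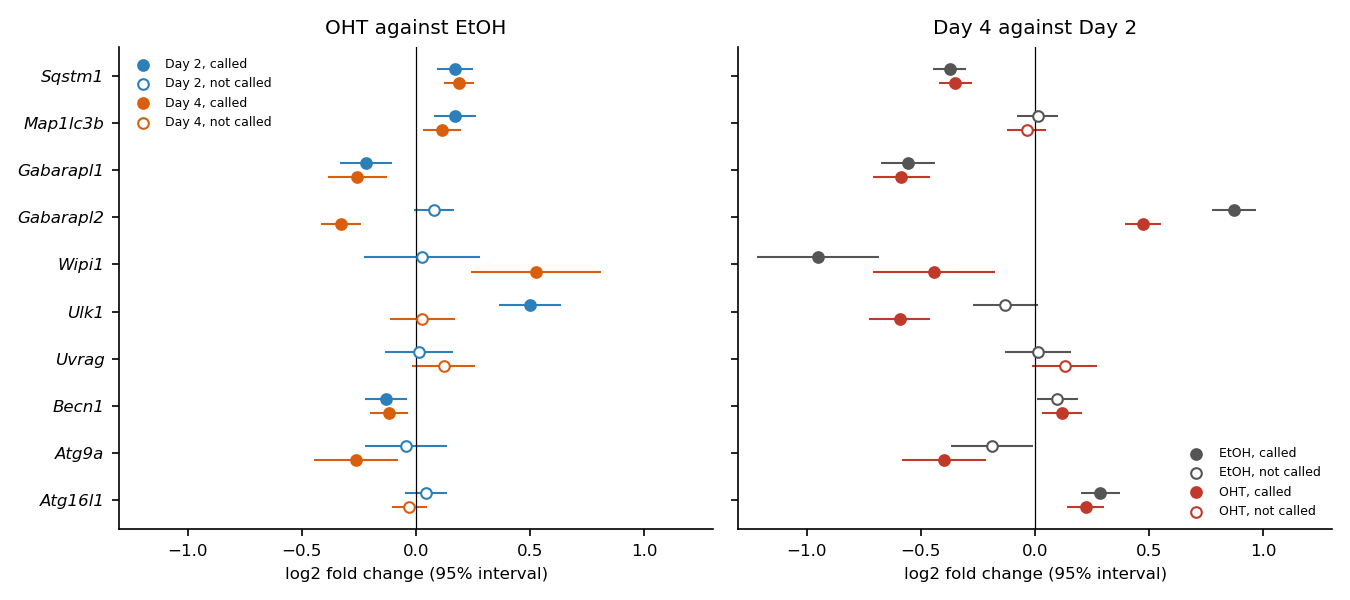
Log2 fold changes of the 10 genes for OHT against EtOH on each day (left) and for Day 4 against Day 2 in each treatment (right). Bars are 95% intervals of the Wald estimate and filled points passed the test; *Gabarapl2*, *Wipi1* and *Ulk1* are the genes whose Day 2 and Day 4 values on the left are farthest apart.

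Whether the OHT difference itself changed between the days was tested as an interaction over all 12 libraries. Of the 10 genes, 3 passed (32.3% of 11616 genes did): *Wipi1* in the higher direction (18.7% of all genes) and *Gabarapl2* and *Ulk1* in the lower (13.6%). *Gabarapl2* differed by -0.40 (SE 0.07, adjusted p = 2.6e-08) and *Ulk1* by -0.47 (SE 0.11, adjusted p = 3.9e-04), and both were called under all 19 alternatives. *Wipi1* differed by 0.50 (SE 0.18, adjusted p = 0.0214). Its call was lost under 8 of the 19 (adjusted p up to 0.0863), which are effective lengths as offsets and the fits without Day2_EtOH replicate 1 or 2, Day2_OHT replicate 1 or 2, Day4_EtOH replicate 2 or Day4_OHT replicate 2 or 3. *Atg9a*, called at Day 4 alone, had a difference of -0.22 (SE 0.11, adjusted p = 0.166), so that its values were not shown to differ between the days.

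Several of the genes differed more between the days than between the treatments. In EtOH, 2 of the 10 were higher at Day 4 (20.6% of 11572 genes) and 3 were lower (20.5%). *Gabarapl2* was higher by 0.87 on the log2 scale (SE 0.05, adjusted p = 2.2e-68), or 82.7%, and *Atg16l1* by 0.28 (SE 0.04, adjusted p = 1.3e-09). *Wipi1* (-0.95, SE 0.14, adjusted p = 8.6e-11), *Gabarapl1* (-0.56, SE 0.06, adjusted p = 2.3e-18) and *Sqstm1* (-0.37, SE 0.04, adjusted p = 2.2e-22) were lower. The GABARAP relatives *Gabarapl1* and *Gabarapl2* thus went in opposite directions without OHT.

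In OHT, 3 of the 10 were higher at Day 4 (30.7% of 11638 genes) and 5 were lower (22.9%). *Gabarapl2* (0.47, SE 0.04), *Atg16l1* (0.22, SE 0.04) and *Becn1* (0.12, SE 0.04, adjusted p = 0.0227) were higher. *Ulk1* (-0.59, SE 0.07), *Gabarapl1* (-0.59, SE 0.06), *Wipi1* (-0.44, SE 0.14), *Atg9a* (-0.40, SE 0.09) and *Sqstm1* (-0.35, SE 0.04) were lower. The call of *Wipi1* was lost without Day2_OHT replicate 3 (-0.31, adjusted p = 0.0956), and that of *Becn1* under 7 of 14 alternatives (adjusted p up to 0.263), among them total counts, the length trend removed and the fits without that library or Day4_OHT replicate 1 or 2. These comparisons share libraries with those of OHT against EtOH.

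The other genes of the pathway were examined from a list of 58, all of which passed the minimum. At Day 2, 7 of the 58 were higher (9.17% of all genes) and 6 were lower (10.6%), and at Day 4, 12 were higher (23.5%) and 13 lower (21.7%). Their median log2 fold changes were -0.021 and 0.016. These shares, 12.1% and 10.3% at Day 2 and 20.7% and 22.4% at Day 4, lay near those of all genes. The count of higher genes at Day 2 depended on single libraries, and was 3 without Day2_EtOH replicate 1 or Day2_OHT replicate 3 and 4 without Day2_EtOH replicate 2.

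**Figure D4:**
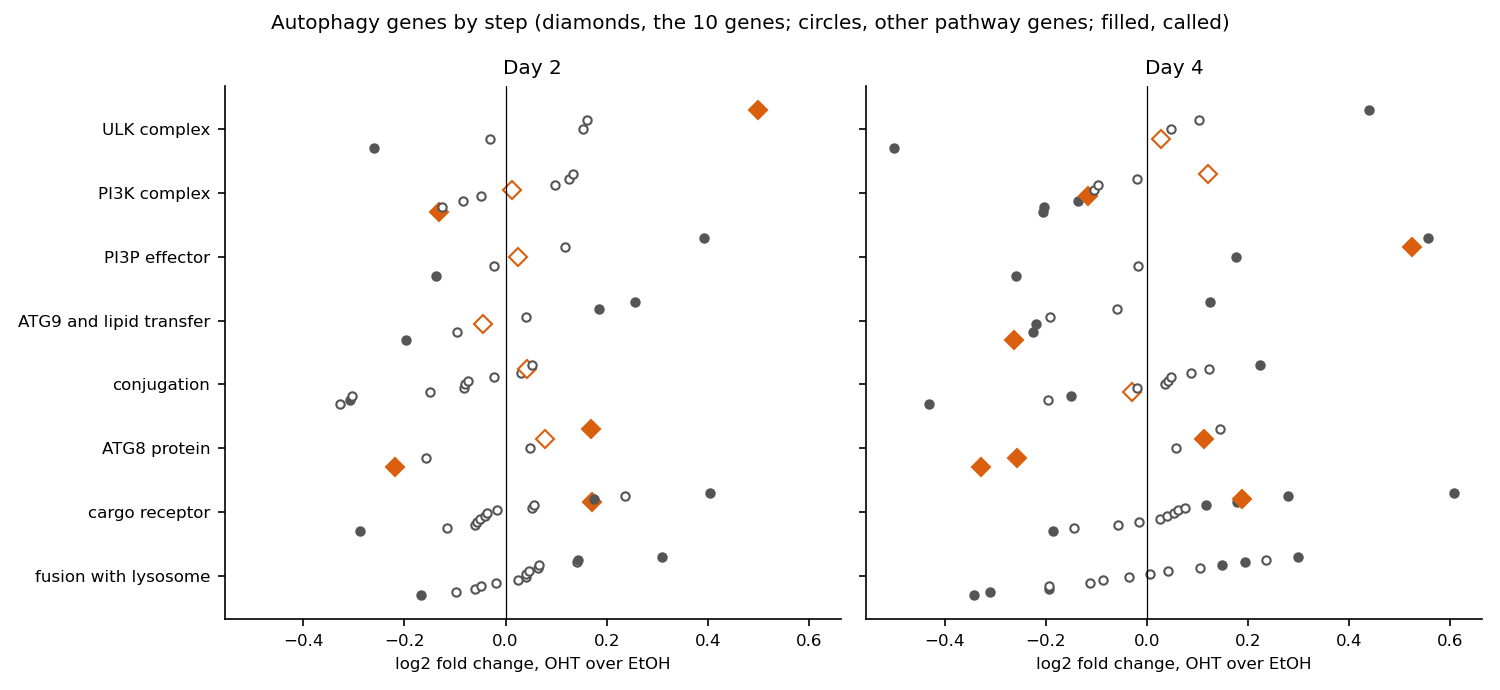
Log2 fold changes of OHT over EtOH at Day 2 (left) and Day 4 (right) for the 10 genes (diamonds) and 58 other pathway genes (circles), by step of the pathway. Filled symbols passed the test. At Day 4, 4 of the 8 genes of the lipid kinase complex were called, all lower (21.7% of all genes were lower). The called genes of each other step lie on both sides of 0. This contrast was seen in the values and was not tested.

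By step, the ULK complex had 1 of its 4 other genes lower at Day 2 (10.6% of all genes were). At Day 4, 1 was higher (23.5% of all genes) and 1 lower (21.7%). No step was tested against these shares. *Atg101*, which encodes a subunit that stabilises the complex and is on the bound list, had 1841, 1807 and 1716 normalised counts in Day2_EtOH and 1452, 1452 and 1579 in Day2_OHT. At Day 4 it had 1964, 1819 and 1832 in EtOH and 1314, 1341 and 1321 in OHT. It was lower in all OHT libraries, with log2 fold changes of -0.26 (SE 0.06, adjusted p = 5.5e-04) and -0.50 (SE 0.06, adjusted p = 1.7e-17). *Atg13*, another subunit on the bound list, was not called, with log2 fold changes of 0.16 (SE 0.08) and 0.10 (SE 0.08).

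Among the 6 other genes of the lipid kinase complex, 0 were called by DESeq2 at Day 2 (2 had an unadjusted p below 0.05, and edgeR called 1). The Day 2 range with *Becn1* and *Uvrag* was -0.13 to 0.13. At Day 4, 3 were lower by DESeq2 (21.7% of all genes were), 5 by edgeR and 1 with the replicate number as a block. The 3 were *Pik3r4* (-0.21, SE 0.05, adjusted p = 1.9e-04), *Ambra1* (-0.14, SE 0.05, adjusted p = 0.021) and *Rubcn* (-0.20, SE 0.07, adjusted p = 0.021). RUBCN restrains the complex, whereas PIK3R4 and AMBRA1 are parts or activators of it. They are named after their values were seen.

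Of the 4 other readers of PI3P, *Wdr45* and *Wdr45b*, which encode the relatives WIPI4 and WIPI3 of WIPI1, moved in opposite directions on both days. *Wdr45* rose from 320, 346 and 351 normalised counts in Day2_EtOH to 460, 461 and 411 in Day2_OHT, and from 580, 573 and 568 in Day4_EtOH to 887, 823 and 822 in Day4_OHT. No libraries overlapped, and the log2 fold changes were 0.39 (SE 0.11, adjusted p = 0.00352) and 0.56 (SE 0.08, adjusted p = 2.6e-11). *Wdr45b* fell by 0.14 on the log2 scale (SE 0.05, adjusted p = 0.0356) at Day 2 and by 0.26 (SE 0.04, adjusted p = 1.9e-09) at Day 4.

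Of the 5 other genes of ATG9 and lipid transfer, 2 were higher (9.17% of all genes) and 1 lower (10.6%) at Day 2. At Day 4, 1 was higher (23.5%) and 2 were lower (21.7%). *Tmem41b*, which encodes a scramblase of the endoplasmic reticulum, was lower on both days (-0.20, SE 0.06, and -0.22, SE 0.05). *Atg2b*, which encodes a lipid transfer protein, was higher on both (0.19, SE 0.06, and 0.13, SE 0.05). Its relative *Atg2a*, named after its values were seen, was higher at Day 2 (0.26) and lower at Day 4 (-0.23), and this difference between the days passed the test (-0.48, SE 0.09, adjusted p = 8.3e-07).

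The 10 other genes of conjugation held 1 lower at Day 2 (10.6% of all genes). At Day 4 they held 1 higher (23.5%) and 2 lower (21.7%). *Atg12*, which encodes the protein joined to ATG5 and is on the bound list, had log2 fold changes of -0.31 (SE 0.07, adjusted p = 1.2e-04) at Day 2 and -0.15 (SE 0.06, adjusted p = 0.0349) at Day 4. *Atg16l2*, a relative of *Atg16l1* and the 4th gene of the 58 on the bound list, had 314, 296 and 288 normalised counts in Day2_EtOH and 240, 238 and 248 in Day2_OHT, and 322, 356 and 326 in Day4_EtOH and 265, 246 and 235 in Day4_OHT. All OHT libraries were lower on both days, and the Day 4 difference was called (-0.43, SE 0.12, adjusted p = 0.00151) but not that at Day 2 (-0.30, SE 0.12, adjusted p = 0.0710). Its promoter window was the single one among those of the 10 genes and the 48 matched others to hold all 8 letters of the probe. That is 1 of the 63 windows of the other pathway genes (1.59%), near the 1.45% of all windows. The 8 letters are in capitals in the stretch at chr7:101302122-101302150 on the minus strand.
Atg16l2: aaaagcgctTGGTacaGCCCggggattcc

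Neither of the other 2 ATG8 genes, *Map1lc3a* and *Gabarap*, was called by DESeq2 for OHT on either day, although edgeR called 1 of them (*Gabarap*) higher at Day 4, and 0 had an unadjusted p below 0.05 at Day 2 and 1 at Day 4. Of the 13 other cargo receptor genes, 2 were higher (9.17% of all genes) and 1 lower (10.6%) at Day 2. At Day 4, 4 were higher (23.5%) and 1 lower (21.7%). *Tollip*, which encodes a ubiquitin-binding receptor, was higher on both days (0.17, SE 0.06, and 0.18, SE 0.05). *Bnip3*, a mitochondrial receptor named after its values were seen, was much lower at Day 4 than at Day 2 in EtOH (-2.51, SE 0.05) and in OHT (-2.36, SE 0.06). Of the 14 genes of fusion with the lysosome, 2 were higher (9.17% of all genes) and 1 lower (10.6%) at Day 2. At Day 4, 3 were higher (23.5%) and 3 lower (21.7%). *Ykt6*, which encodes a SNARE protein of the fusion step, was lower on both days, with log2 fold changes of -0.17 (SE 0.04, adjusted p = 0.00191) and -0.34 (SE 0.04, adjusted p = 2.3e-17).

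The lysosomal genes, which act downstream of the autophagosome, were set beside the pathway. Of 27 tested at Day 2, 15 were higher (9.17% of all genes were) and 0 lower (10.6%) by DESeq2 (0 lower also by edgeR or at an unadjusted p below 0.05), with a median log2 fold change of 0.18. Of 28 tested at Day 4, 23 were higher (23.5% of all genes) and 1 lower (21.7%), with a median of 0.42. From Day 2 to Day 4 the median log2 fold change of the 27 tested was -0.20 in EtOH and 0.078 in OHT. Over all genes tested it was -0.0015 and 0.036. The E-box was in 10 of the 25 windows matched for this list, in 10 of 63 windows of the other pathway genes (15.9%), in 0 of 8 of the 10 genes and in 7.15% of all windows. The difference between the lists was not tested. A list of 6 genes of *Flcn* and the TFE factors went both ways. At Day 2, 2 were higher (9.17% of all genes) and 2 lower (10.6%), and at Day 4, 2 were higher (23.5%) and 4 lower (21.7%). *Flcn*, which encodes a repressor of the TFE factors, was lower on both days, with log2 fold changes of -2.25 (SE 0.08) and -3.11 (SE 0.08). *Mitf* (-0.22 and -0.57) was lower on both days, and *Tfeb* (-0.37) and *Tfe3* (-0.18) were lower at Day 4. These are the 4 genes called lower at Day 4, and the other 2 of the list were called higher.

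Over the 12 libraries, the genes whose log2 normalised counts were most like those of *Wipi1*, the gene of the 10 with the largest Day 4 difference, were *Aldoa* (Pearson's r = 0.979), *Igfbp2* (0.978) and *Acvr1b* (0.977) out of 11616 genes. The 12 points fall into 4 groups and share their libraries, so that these values describe the pattern over the groups.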

How the data were processed

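The authors mapped stranded paired reads of rRNA-depleted total RNA to GRCm38.p6 with STAR (2.6.0c) and quantified GENCODE genes with RSEM, one library at a time, per the submitters' processing notes. Deposited expected counts are RSEM's estimates of read pairs per gene, and the deposited TPM values are scaled by length within each library. The authors' deposited tables also hold log2 fold changes, p-values and adjusted p-values from DESeq2 (1.22.2), which were not used except for gene symbols. Expected counts were rounded and tested over all genes with DESeq2 (1.42.0, R 4.3.3), by the Wald test without shrinkage. Genes were called at an adjusted p (Benjamini-Hochberg) under 0.05 with a mean over 100. The methods of the study name DESeq2 and these thresholds, but not how RSEM values entered the fit. With effective lengths as offsets, 953 genes were called higher and 1019 lower at Day 2, the counts that the study reports. The main fit called 1068 and 1238. Printed counts were normalised over all 12 libraries, and fold changes come from the 6 libraries of each comparison. The tests were tried on simulated data. No replicate pair was a duplicate, with chi-square values per gene between 3.41 and 11.2. Posterior SDs of RSEM were at most 2.19% of the count (*Atg9a*), so that reads shared with other genes weighed little.

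All 10 genes were reported in each comparison. Other pathway genes were named if called in 1 direction on both days without overlap (the 8 largest at Day 4) or on the bound list. The members, lists and rules were chosen with earlier results of these data known. The alternatives were edgeR (4.0.16), TMM factors, total counts, effective lengths, removal of a length trend (loess span 0.3), a replicate block, a fit of all 12 libraries, dropping the minimum mean, adjustment over the genes above it alone, and each library left out. Coordinates are those of GENCODE vM21 on GRCm38.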

Additional observations from a re-analysis of the deposited data

Results flagged for a closer look

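The OHT difference changed between the days by a test of that change in 3 of the 10 genes. For *Gabarapl2* the change was -0.40 on the log2 scale (adjusted p = 2.6e-08): its OHT libraries were slightly above EtOH at Day 2, without a call, and below at Day 4. For *Ulk1* it was -0.47 (adjusted p = 3.9e-04), with a difference at Day 2 and overlapping libraries at Day 4. For *Wipi1* it was 0.50 (adjusted p = 0.0214), with the reverse order of days, and this call was lost under 8 of 19 alternatives. With 3 libraries per group, single libraries were not tested for standing apart.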

How the results depend on the processing

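The fold changes of the 10 genes on the 2 days were recomputed under 14 alternatives each. Of the 280 values, 233 kept direction and side of the threshold, 36 kept direction but lost the call, 2 gained it (*Gabarapl2* at Day 2) and 9 changed sign, all 9 in values that were not called. *Uvrag* at Day 2 became -0.12 with effective lengths as offsets, -0.037 with the length trend removed and -0.038 with that trend and the replicate block. Without single libraries *Uvrag* at Day 2 ran from -0.019 to 0.062, *Wipi1* at Day 2 from -0.11 to 0.098 and *Ulk1* at Day 4 from -0.058 to 0.077.

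The count of the 10 genes called lower at Day 2 was 1 with TMM factors, total counts, effective lengths or the length trend removed, and 1 to 2 without single libraries. At Day 4 it was 2 with effective lengths and 2 to 3 without single libraries. Of the 58 other genes, 4 were called higher at Day 2 with the length trend removed, and 3 to 8 without single libraries. The cause was not tested. Scaling moved the median over all genes by at most 0.038. Over all genes, calls at Day 2 ran from 484 to 1480 higher and from 586 to 1825 lower. Counts of the 10 genes called higher, between the days or for a difference stayed within 1.5 times. The fits without a library have fewer samples by construction.

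Whether replicate numbers pair the samples was not settled. Deviations of same-numbered libraries correlated by 0.076, 0.084 and -0.035 at Day 2 and by 0.12, -0.13 and -0.23 at Day 4. Those of other-numbered libraries ran from -0.31 to 0.29 at Day 2 and from -0.29 to 0.38 at Day 4. Deviations from a mean of 3 libraries constrain each other, so that these values cannot exclude a pairing. With the replicate block, and also with the block and the length trend removed, the 10 genes called lower by DESeq2 numbered 0 at Day 2 and 2 at Day 4. At Day 2, 2 and 1 were lower at an unadjusted p below 0.05 in these fits, and edgeR without a block called 2. The block took the calls of *Gabarapl1* (adjusted p = 0.0527) and *Becn1* (0.166) at Day 2 and of *Map1lc3b* (0.0967), *Becn1* (0.0918) and *Atg9a* (0.105) at Day 4, and with the trend removed as well these values were 0.106, 0.360, 0.121, 0.0543 and 0.140. Other pathway genes called with the replicate block numbered 3 higher at Day 2, 6 higher at Day 4 and 8 lower at Day 4. With the trend removed as well they numbered 1 higher and 3 lower at Day 2, and 7 higher and 8 lower at Day 4.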
